A study of Homo sapiens with 7 samples.

Results

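The calcium/calmodulin-dependent kinases (CaMKs) were followed in RH30 cells through 10 genes, CAMKK1, CAMKK2, CAMK1, CAMK1D, CAMK1G, CAMK4, CAMK2A, CAMK2B, CAMK2D and CAMK2G. The genes were taken by name from a count table of 57189 genes. The family was selected on this same comparison, because CAMK1G and CAMK2A are among its most strongly changed genes, so their differences between treated and untreated cells are a description, and where calls from the fit over all genes are quoted for them, they support nothing.

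RH30 cells are an established line from an alveolar rhabdomyosarcoma, a muscle-lineage tumour, and were labelled wt for genotype. The study worked with a derivative that expresses GFP and luciferase. The study used the Smac mimetic BV6, a small molecule that antagonizes the inhibitor of apoptosis proteins, to make rhabdomyosarcoma cells more sensitive to natural killer cells. Poly(A) RNA was sequenced from 4 untreated samples (replicates 1 to 4) and from 3 samples that received BV6 at 5 µM during 24 h (replicates 2 to 4). Replicates 2, 3 and 4 carry the same experiment label in both groups, whereas untreated replicate 1 has no treated partner, and as the labels do not say that replicates are separate cultures, p-values cover only the spread between these samples.

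CaMKs are serine/threonine kinases that are switched on when calcium-loaded calmodulin binds next to their catalytic domain. The CaMK kinases CAMKK1 and CAMKK2 phosphorylate the CaMKI and CaMKIV enzymes in their activation loop, and CAMKK2 also phosphorylates AMPK, the energy sensor of the cell. CaMKII works differently, as a ring-shaped holoenzyme of subunits from the CAMK2A, CAMK2B, CAMK2D and CAMK2G genes that phosphorylate each other and so outlast the calcium signal. In muscle, CaMKs phosphorylate class IIa histone deacetylases and thereby free MEF2 transcription factors, CAMK2D and CAMK2G are the widely expressed CaMKII genes, and CAMK2A, CAMK2B, CAMK4 and CAMK1G are best known from brain.

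Total counts per sample ranged from 54070030 to 77220882, so that 3 counts corresponded to 0.0389 to 0.0557 CPM (counts scaled to the library size). Known NF-κB targets marked the treatment: BIRC3 had a mean of 2.44 ± 1.57 CPM (SD) over the 4 untreated and 70.4 ± 27.4 CPM over the 3 BV6-treated samples, and 5 of 7 listed targets passed the test, all higher. Of 10 rhabdomyosarcoma markers, 9 passed the filter on low counts, with MYOD1, MYOG and DES well expressed and MYF6 near 0, and the list summed to 2153 to 3041 CPM in untreated and 1804 to 2814 CPM in BV6-treated samples. BV6 replicate 3 stood apart from the other samples on the first principal component, at 68.3 against -48.6 to 12.2.

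The region in front of a RefSeq start site is shown for CAMK1G and CAMK2A, the members with the largest differences, and for CAMK2G, an abundant member that hardly differed. RefSeq start sites on GRCh38.p14 were used, and only bases outside every exon annotated in GENCODE 44 are given, 5′ to 3′ on the strand of the gene, with matches to an E-box (CANNTG) or the NF-κB consensus in capitals. CAMK1G is the stretch from 250 bases to 1 base before the start, chr1:209583464-209583713 on the plus strand. CAMK2A covers chr5:150289793-150289894 on the minus strand, only positions -121 to -20 from the RefSeq start site. That site lies 320 bases inside the GENCODE gene start, so the CAMK2A stretch lies within the gene as GENCODE annotates it. CAMK2G covers chr10:73874592-73874805 on the minus strand, positions -250 to -37.
CAMK1G: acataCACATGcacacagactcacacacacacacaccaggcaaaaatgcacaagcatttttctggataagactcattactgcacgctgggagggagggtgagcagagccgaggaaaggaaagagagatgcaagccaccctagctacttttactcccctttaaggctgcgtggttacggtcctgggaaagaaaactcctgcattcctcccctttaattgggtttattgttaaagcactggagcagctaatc
CAMK2A: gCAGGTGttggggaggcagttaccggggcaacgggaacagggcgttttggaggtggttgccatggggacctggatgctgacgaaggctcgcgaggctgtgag
CAMK2G: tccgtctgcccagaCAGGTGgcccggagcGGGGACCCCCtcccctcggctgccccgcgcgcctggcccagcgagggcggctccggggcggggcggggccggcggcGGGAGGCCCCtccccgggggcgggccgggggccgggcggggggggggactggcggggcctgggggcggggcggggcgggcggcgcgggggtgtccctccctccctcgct
CAMK1G carried an E-box with its first base at -245 from the start site, CAMK2A an E-box at -120, and CAMK2G an E-box at -236 and NF-κB matches at -221 and -145. In windows from 250 bases before to 50 bases after the start, searched on both strands, the NF-κB consensus matched 2714 of 35116 RefSeq promoters (7.73%) and 2 of the 13 promoters of the family, one each of CAMK2G and CAMKK1. Neither the CAMK1G nor the CAMK2A window held an NF-κB match. An E-box was found in 68.7% of all promoters and in 9 of the 13 family promoters, whereas the CRE palindrome TGACGTCA (1.85% of all promoters) and TATAAA (11.5%) were found in none of the 13. The E-box is a short motif that most promoters hold, and none of these matches was tied to a difference in RNA.

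Across the family, CAMK1G and CAMK2A were several-fold higher with BV6, CAMK2B was lower, and the 7 remaining members differed by less than 0.5 on the log2 scale. All 10 members passed the filter on low counts. CAMK1G passed it only with the BV6 samples counted, since 2 of 4 untreated and 3 of 3 BV6-treated samples reached the 0.168 CPM that 3 samples had to reach. In the edgeR fit over 23124 genes, 2 of 10 members were called higher (Benjamini-Hochberg adjusted p under 0.05) and 0 were called lower, beside 0.394% and 0.0562% of all genes. At an unadjusted p under 0.05 there were 3 members, with CAMK2B as the lower one, beside 8.39% of all genes in either direction. Nothing is read from this, because the 2 called members are those for which the family was chosen. The groups did not overlap for 3 members, with CAMK1G and CAMK2A higher and CAMK2B lower, where 4.94% of all genes lay higher and 3.89% lower without overlap. The median log2 fold change of the 10 members was 0.03, against -0.01 over all tested genes.

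**Figure D1:**
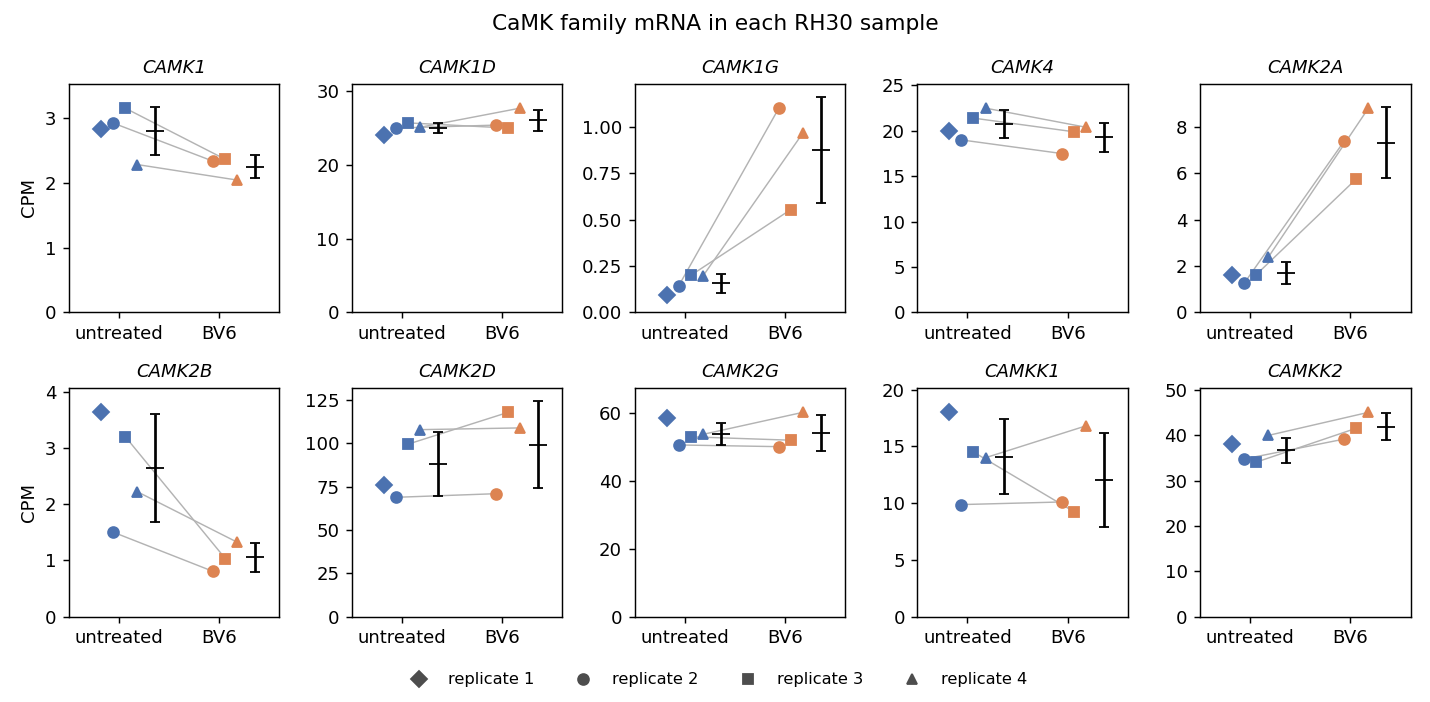
Expression of the 10 CaMK genes in each sample, in CPM on a linear axis that starts at 0 in every panel. Symbols are replicates, grey lines join the untreated and BV6-treated sample of one experiment, and bars give mean ± SD (n = 4 untreated, n = 3 BV6). The BV6-treated samples lie above all untreated ones for CAMK1G and CAMK2A and below them for CAMK2B, and the groups overlap for the other members.

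The CaMK kinases at the top of the cascade were both expressed. CAMKK2 (chromosome 12, 121237675 to 121298308, minus strand, GRCh38) was at 38.0, 34.8, 34.1 and 40 CPM in untreated replicates 1 to 4 and at 39.2, 41.6 and 45.1 CPM in BV6 replicates 2 to 4. The group ranges overlapped, but within each experiment the treated sample was the higher one, by 1.13-fold, 1.22-fold and 1.13-fold, and the log2 fold change was 0.19 (SE 0.111). CAMKK1 (chromosome 17, 3860315 to 3894891, minus strand) varied more, with 18.0, 9.87, 14.5 and 14.0 CPM in untreated and 10.1, 9.26 and 16.8 CPM in treated samples. Its ratio of BV6 to untreated was 1.02, 0.64 and 1.19 in experiments 2, 3 and 4, and the log2 fold change was -0.23 (SE 0.253), so no direction was shared by the experiments. Without BV6 replicate 3 it was -0.07, and without BV6 replicate 4 it was -0.55.

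Of the CaMKI genes, CAMK1G was almost silent in untreated cells and clearly detected after BV6. CAMK1G (chromosome 1, 209583714 to 209613939, plus strand), which encodes the CaMKI isoform that is anchored to membranes by a lipid tail, had 7, 8, 12 and 12 counts in untreated replicates 1 to 4 and 62, 34 and 52 counts in BV6 replicates 2 to 4. In CPM this was 0.0909, 0.143, 0.199 and 0.194 in untreated samples and 1.10, 0.554 and 0.966 in treated ones. The lowest treated sample lay above the highest untreated one, and all 4 untreated values lay above the level of 3 counts. The sample totals exceed the reads per library stated in the methods of the study, so both mates of a pair may have been counted, and 3 counts may stand for fewer fragments. With all counts halved and rounded up, the log2 fold change of CAMK1G was 2.44. Means were 0.157 ± 0.0508 CPM (SD, n = 4) and 0.875 ± 0.286 CPM (n = 3), a 5.57-fold difference (log2 fold change 2.48, SE 0.384). The difference was found in each experiment but varied in size, with treated over untreated ratios of 7.75 in experiment 2, 2.78 in experiment 3 and 4.98 in experiment 4. With a replicate block in the model, which pairs the samples by experiment, the log2 fold change was 2.23 and CAMK1G was no longer called, where 0.649% of all genes were called higher and 0.294% lower. When one sample at a time was left out it stayed between 2.27 and 2.73, yet CAMK1G was called only without BV6 replicate 3 and not in the 6 other fits.

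CAMK1D and CAMK1, the other CaMKI genes, moved little. CAMK1D (chromosome 10, 12349547 to 12835545, plus strand), a CaMKI form known from blood cells and brain, was the steadiest member, at 24.1, 25.0, 25.7 and 25.1 CPM in untreated and 25.4, 25.0 and 27.7 CPM in treated samples (log2 fold change 0.06, SE 0.107). CAMK1 (chromosome 3, 9757347 to 9769992, minus strand), the broadly expressed founding member of the class, was at 2.83, 2.92, 3.15 and 2.28 CPM in untreated and 2.33, 2.36 and 2.04 CPM in treated samples. The treated sample was the lower one in every experiment, at 0.798, 0.75 and 0.896 of its partner, while the groups overlapped through untreated replicate 4 (log2 fold change -0.31, SE 0.186). CAMK1 shares 2175 of its exonic bases (80.1%) with the DNA repair gene OGG1 on the opposite strand, which was at 18.5 CPM in untreated and 14.9 CPM in treated samples (log2 fold change -0.31, SE 0.143, not called). The libraries kept strand information, but whether the counting used it is not stated, so reads of OGG1 and CAMK1 cannot be told apart with certainty.

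CAMK4 (chromosome 5, 111223653 to 111494886, plus strand) encodes CaMKIV, a largely nuclear kinase that phosphorylates CREB. It was at 20, 19.0, 21.4 and 22.5 CPM in untreated and 17.5, 19.9 and 20.4 CPM in treated samples. The treated sample was slightly lower in all 3 experiments, with ratios of 0.919, 0.932 and 0.907, but the groups overlapped and the log2 fold change was -0.10 (SE 0.123).

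**Figure D2:**
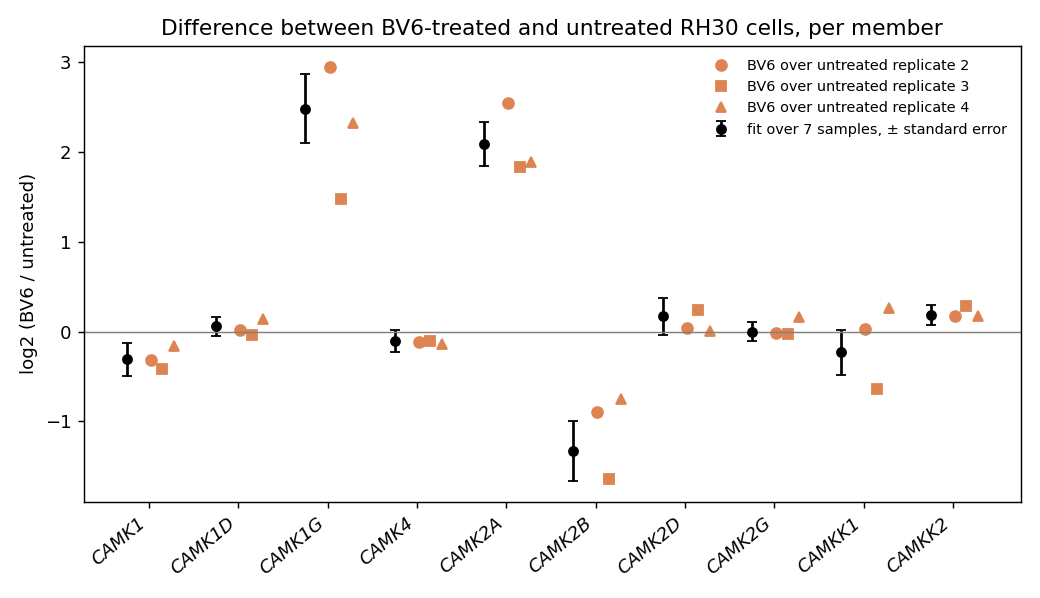
Log2 ratio of BV6-treated to untreated cells for each CaMK gene. Black points with bars are the edgeR log2 fold change ± SE over all 7 samples, and orange symbols are the ratios within experiments 2, 3 and 4. CAMK1G (2.48) and CAMK2A (2.09) lie far above 0 and CAMK2B (-1.33) below it in all 3 experiments. The other black points lie less than 0.5 from 0, while single experiments reach -0.64 (CAMKK1) and -0.42 (CAMK1), both in experiment 3.

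Within CaMKII, CAMK2A was higher and CAMK2B lower with BV6, the latter not called by edgeR, and the widely expressed CAMK2D and CAMK2G stayed level. CAMK2A (chromosome 5, 150219491 to 150290093, minus strand), the α subunit, had 123, 71, 98 and 147 counts in untreated and 416, 354 and 475 counts in treated samples. This corresponded to 1.6, 1.26, 1.63 and 2.38 CPM without and 7.41, 5.77 and 8.82 CPM with BV6. Every treated sample was above every untreated one, with means of 1.72 ± 0.47 CPM (SD, n = 4) and 7.33 ± 1.53 CPM (n = 3), a 4.27-fold difference (log2 fold change 2.09, SE 0.242). Within experiments the ratios were 5.86, 3.55 and 3.71. Over the alternative fits the log2 fold change ran from 1.94 to 2.29, and it was 2.24 without BV6 replicate 3. The proline transporter gene SLC6A7 on the opposite strand shares 129 exonic bases (1.36%) with CAMK2A and had only 5 to 38 counts per sample.

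CAMK2B (chromosome 7, 44210019 to 44334577, minus strand), the β subunit, which binds actin and anchors the holoenzyme to the cytoskeleton, was lower with BV6. Its counts were 280, 84, 193 and 137 in untreated and 45, 63 and 71 in treated samples, or 3.63, 1.5, 3.20 and 2.22 against 0.801, 1.03 and 1.32 CPM. The highest treated sample lay just below the lowest untreated one, untreated replicate 2. Means were 2.64 ± 0.965 CPM (n = 4) and 1.05 ± 0.259 CPM (n = 3), with a log2 fold change of -1.33 (SE 0.334) and within-experiment ratios of 0.535, 0.321 and 0.595. CAMK2B was not called by edgeR and was called lower by DESeq2. Run without the edgeR filter on low counts, DESeq2 called 0.375% of 43421 genes lower. Its own filtering can leave some of these genes without an adjusted p, so the share among adjusted genes may be larger. CAMK2B shares 2325 exonic bases (20%) with YKT6 on the opposite strand, a gene with 5251 to 8101 counts per sample against 45 to 280 for CAMK2B. YKT6 itself was level, at 106 and 104 CPM, and the part of its reads in the CAMK2B counts was not tested.

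CAMK2D and CAMK2G carried most CaMKII RNA. CAMK2D (chromosome 4, 113418054 to 113761927, minus strand), the δ subunit of heart and other muscle, was at 76.1, 68.9, 99.6 and 108 CPM in untreated and 71.0, 118 and 109 CPM in treated samples. These values followed the experiment more than the treatment, being lower in replicates 1 and 2 than in replicates 3 and 4 in whichever group was sampled, and the ratios within experiments were 1.03, 1.18 and 1.01. CAMK2G (chromosome 10, 73812501 to 73874591, minus strand), the γ subunit, was at 58.3, 50.5, 52.9 and 53.6 CPM in untreated and 50, 51.9 and 60.1 CPM in treated samples, with a log2 fold change of 0.00 (SE 0.110). That of CAMK2D was 0.17 (SE 0.205).

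To compare members with each other, CPM were divided by the length of the union of annotated exons in kb. In untreated cells CAMK2G came first with 6.44 ± 0.39 CPM per kb (SD, n = 4), followed by CAMK2D with 5.64 ± 1.19 and CAMKK2 with 5.12 ± 0.385. CAMK2D overlapped both of the others in range, whereas CAMK2G (6.04 to 6.98) lay above CAMKK2 (4.76 to 5.58) in every sample. CAMK1D followed with 2.88 ± 0.0738, CAMKK1 with 1.90 ± 0.45, CAMK4 with 1.52 ± 0.112 and CAMK1 with 1.03 ± 0.136 CPM per kb, where only CAMK4 overlapped the gene ranked above it. Reads of OGG1 may be part of the CAMK1 level and of sums that include it. Divided by the length of the longest transcript instead, CAMKK1 (3.62) came before CAMK1D (3.09) and CAMK1 (1.88) before CAMK4 (1.73), and CAMK2G was at 13.9 and CAMK2B at 0.58 CPM per kb. CAMK2B (0.227 ± 0.0832), CAMK2A (0.181 ± 0.0496) and CAMK1G (0.0471 ± 0.0153) closed the list at a distance, CAMK1 being 4.53-fold above CAMK2B. After BV6 the order of the first 7 genes was the same, and the last 3 changed places. CAMK2A then reached 0.774 ± 0.161 CPM per kb (n = 3) and overlapped CAMK1 at 0.828 ± 0.0652, CAMK1G followed with 0.263 ± 0.0859, and CAMK2B was last with 0.0905 ± 0.0224.

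As a share of the summed CaMKII level per kb, CAMK2A made up 1.37%, 1.24%, 1.3% and 1.82% in untreated replicates 1 to 4 and 6.86%, 4.22% and 6.12% in BV6 replicates 2 to 4. CAMK2B accounted for 2.54%, 1.2%, 2.1% and 1.39% of the sum in untreated and 0.607%, 0.614% and 0.748% in treated samples. The share of CAMK2B was the larger one in untreated replicates 1 and 3 and that of CAMK2A in untreated replicates 2 and 4, and CAMK2A was well above CAMK2B in all 3 treated samples. The order in untreated samples depends on the length used. All exons span 9481 bases for CAMK2A and 11598 for CAMK2B, whereas their longest transcripts have 4848 and 4545. Shares by the longest transcript are not given, and the part of YKT6 reads in the CAMK2B counts was not tested. CAMK2D and CAMK2G together still supplied 96.8% ± 0.605 of the CaMKII sum without and 93.6% ± 1.38 with BV6. The CaMKII sum itself was 12.5 ± 1.32 CPM per kb in untreated and 13.7 ± 2.02 CPM per kb in treated samples, with overlapping ranges. The share of CAMK1G among the 3 CaMKI genes was 1.19% ± 0.376 and 6.39% ± 1.95, while the summed level of those genes was 3.96 ± 0.175 and 4.09 ± 0.159 CPM per kb. Over all 10 genes the sum was 25.0 ± 1.88 and 26.6 ± 2.94 CPM per kb. These shares describe RNA levels in bulk samples, in which more cells with a transcript and more transcript per cell cannot be told apart.

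**Figure D3:**
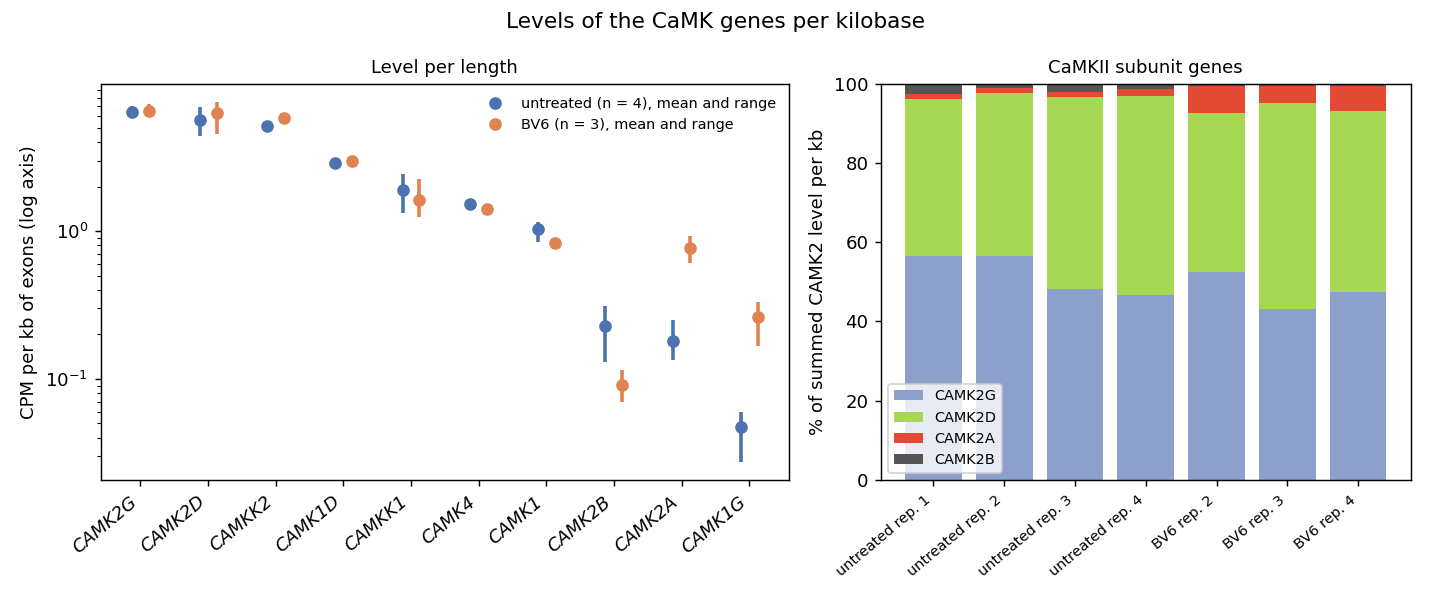
Left, level of each CaMK gene in CPM per kb of exons on a log axis, with the mean as a point and the range of the samples as a line, in untreated (n = 4) and BV6-treated cells (n = 3). Right, share of each CaMKII gene in the summed CaMKII level per kb in every sample. CAMK2D and CAMK2G fill 92.5% to 97.6% of each bar, and the CAMK2A share is larger in the 3 treated samples than in the 4 untreated ones.

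Since CAMK1G, CAMK2A and CAMK2B are best known from brain, neuronal and leukocyte markers were set beside them. Of 9 neuronal markers 7 passed the filter, and 0 were called by edgeR or by DESeq2 or reached an unadjusted p under 0.05. Their summed level was 120 to 186 CPM in untreated and 71.4 to 140 CPM in treated samples, most of it TUBB3 (109 ± 31.2 and 71.3 ± 35.3 CPM), with SNAP25 and NEFL near 0. Of 8 leukocyte markers 7 passed the filter and 0 were called by either tool (1, CD68, at an unadjusted p under 0.05), with sums of 13.6 to 16.1 and 11.9 to 15.5 CPM. Over all genes edgeR called 0.394% higher and 0.0562% lower, and 8.39% reached an unadjusted p under 0.05. With such shares, the counts of calls in the neuronal and leukocyte lists say nothing about their genes. The lower sum of the neuronal list came mostly from TUBB3, which was at 0.759, 0.399 and 1.08 of its untreated partner in experiments 2, 3 and 4. SYT1 was higher without overlap (18.1 ± 3.43 and 23.1 ± 2.06 CPM), and GAD1 was at 6.97 ± 1.02 and 8.13 ± 0.985 CPM. RBFOX3 went the other way, at 3.69 ± 2.02 and 1.87 ± 0.747 CPM, with treated over untreated ratios of 0.502, 0.375 and 1.64 in experiments 2, 3 and 4. Log2 fold changes in the list ran from -0.98 (RBFOX3) to 0.38, with a median of 0.09. The part of such markers in the CAMK2B difference was not tested.

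Over the 7 samples, log2 CPM of CAMK1G and CAMK2A ran in parallel (Pearson r 0.96), and CAMK1G ran against CAMK2B (r -0.83). CAMK1 and CAMKK2, both little changed on average, ran against each other (r -0.94), and CAMK2G followed CAMKK1 (r 0.88). The CAMK1 counts may include reads of OGG1, as described above. All of these share the same 7 libraries and the same split into treated and untreated samples, so they describe the samples only. By the same measure the genes outside the family most like CAMK2A were MIR497HG (r 0.991), GPR176 (0.989), SSTR2 (0.987), USP31 (0.986) and C17orf49 (0.985). SSTR2, a somatostatin receptor, was at 1.62 CPM in untreated and 18.8 CPM in treated samples, on average. Those most like CAMK1G were FAM155A (r 0.986), WFDC5 (0.983), HECW2 (0.982), RAB13 (0.982) and AC108451.2 (0.979).

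The genes around the kinases were described from 8 lists of 101 genes in calcium and calmodulin signalling, of which 90 passed the filter. In the edgeR fit 2 of the 90 rose, the kinase DCLK1 and the histone deacetylase HDAC9, and 0 fell. At an unadjusted p under 0.05 the counts were 7 higher and 9 lower (17.8% of the 90, beside 8.39% of all genes). DESeq2 called 3 genes higher, adding MYLK, and again 0 lower. It was run without the edgeR filter on low counts, on 43421 genes, of which it called 0.564% higher. Its own filtering can leave some of these genes without an adjusted p, so the share among adjusted genes may be larger. The edgeR share is 2.22% called higher, beside 0.394% of all genes, and as the lists were drawn up with earlier results of these data known, these counts support nothing further. Groups did not overlap for 8 genes that were higher (8.89%, beside 4.94% of all genes) and 7 that were lower (7.78%, beside 3.89%), and the median log2 fold change was -0.02.

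HDAC9 encodes a class IIa histone deacetylase, a direct substrate of CaMKs that represses MEF2. It was at 3.75, 4.42, 4.6 and 5.34 CPM in untreated and 23, 18.1 and 13.6 CPM in treated samples. All treated samples were above all untreated ones, and HDAC9 rose with a log2 fold change of 2.01 (SE 0.201, edgeR, Benjamini-Hochberg adjusted p = 0.00446). DCLK1, a kinase of the CaMK group with a microtubule-binding doublecortin domain, was at 14.3, 13.1, 22.4 and 22.5 CPM in untreated and 53.7, 58.0 and 51.6 CPM in treated samples. It rose by 1.59 on the log2 scale (SE 0.203, edgeR, Benjamini-Hochberg adjusted p = 0.0116), also without overlap of the groups. As the lists were drawn up with earlier results of these data known, p-values given for their genes describe this comparison and support nothing further.

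**Figure D4:**
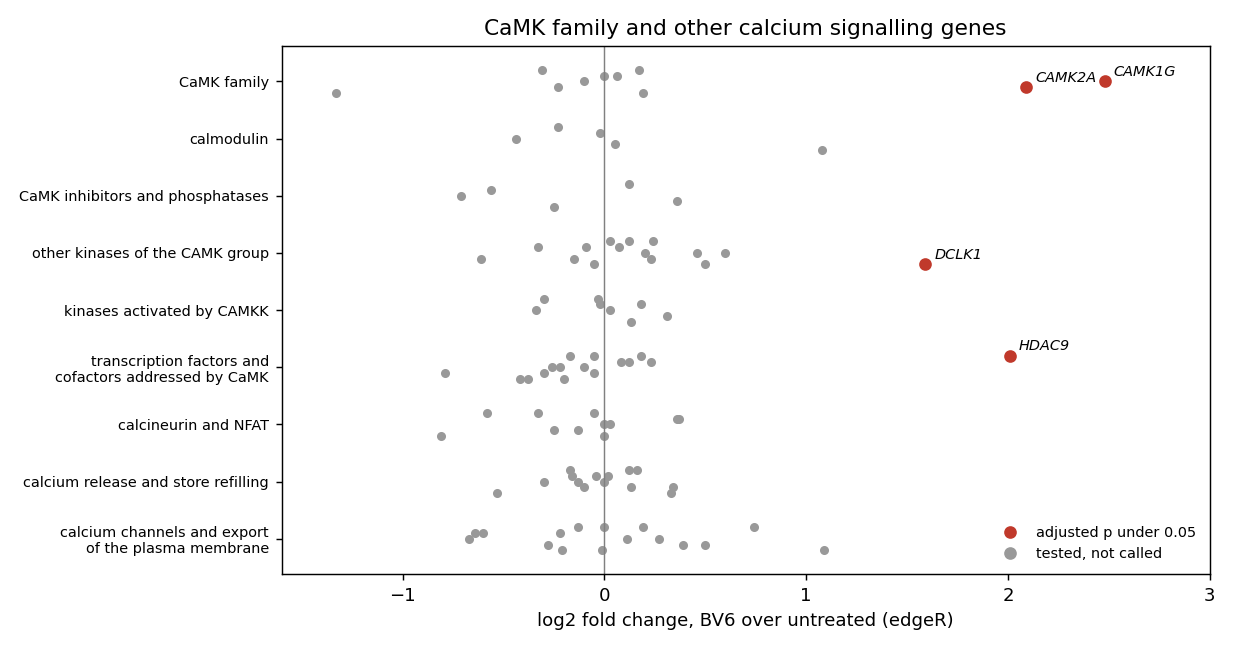
Log2 fold change (edgeR, BV6 over untreated) of the CaMK family and of each tested gene in 8 lists of calcium signalling genes, 1 point per gene with vertical offsets for legibility only. Red points passed an adjusted p of 0.05, which in the lists were DCLK1 (1.59) and HDAC9 (2.01), and CAMK1G and CAMK2A, shown in red as well, are those the family was chosen by.

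Calmodulin is the calcium sensor that activates every CaMK. Of its genes, CALM2 was at 371 ± 48.5 and 366 ± 15.1 CPM in untreated and treated samples, and CALM3 was lower without overlap, at 242 ± 24.7 and 179 ± 23.7 CPM, but neither was called. Among the inhibitors and binding partners, CAMK2N1, an inhibitor protein of CaMKII, was at 14.9 ± 2.38 and 16.2 ± 1.77 CPM, and its relative CAMK2N2 was lower without overlap, at 15.7 ± 2.17 and 10.6 ± 1.66 CPM. NRGN, which holds calmodulin at low calcium, was at 8.97 ± 1.98 and 5.49 ± 1.76 CPM. PPM1F, a phosphatase that removes the activating phosphate of CaMKs, was at 126 ± 30.1 and 105 ± 30.7 CPM, and 0 of the 5 tested genes of this list were called.

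Of 15 other kinases of the CaMK group that were tested, DCLK1 alone was called by edgeR. MYLK, the calmodulin-dependent myosin light chain kinase, came nearest, at 34.7 ± 2 CPM in untreated and 52.8 ± 7.49 CPM in treated samples (log2 fold change 0.60, SE 0.122, edgeR, Benjamini-Hochberg adjusted p = 0.0938), and it was called with the replicate block. CASK, a membrane scaffold with a CaMK-like domain, was at 146 ± 9.06 and 172 ± 18.8 CPM. In a list around the kinases that CAMKK acts on (AMPK subunits, AKT1 and STK11), 0 of 8 tested genes were called. The AMPK catalytic subunit PRKAA1 was at 95.8 ± 8.19 and 109 ± 4.87 CPM and AKT1 at 240 ± 32.1 and 195 ± 66.6 CPM.

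Transcription factors and cofactors addressed by CaMKs included 16 tested genes, and HDAC9 was the one that rose. Its class IIa relative HDAC5 was at 112 ± 35.1 and 64.9 ± 18.1 CPM (log2 fold change -0.79, SE 0.254, not called). MEF2D, a muscle transcription factor released from these deacetylases, was at 63.2 ± 6.51 and 47.2 ± 7.53 CPM, MEF2A at 98.6 ± 15.7 and 107 ± 15.8 CPM, and SRF at 129 ± 11.8 and 115 ± 25.3 CPM. In the calcineurin and NFAT list, the phosphatase branch of calmodulin signalling, 0 of 11 tested genes were called. PPP3CA, its catalytic subunit, was at 102 ± 12.1 and 102 ± 10.1 CPM, and the calcineurin regulator RCAN2 at 47.9 ± 14.5 and 27.3 ± 10.4 CPM. RCAN2 was called lower with the replicate block, with treated over untreated ratios of 0.476, 0.543 and 0.562 in experiments 2, 3 and 4.

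For the genes that shape the calcium signal itself, calls are given beside 0.394% of all genes called higher and 0.0562% called lower. With such shares, 0 calls in a list of this size say nothing about its genes. Of 14 tested genes for calcium release and store refilling 0 were called. The ryanodine receptor RYR1 of skeletal muscle was at 148 ± 40.5 and 102 ± 23.9 CPM, the store pump ATP2A2 at 400.0 ± 10.8 and 390 ± 22.8 CPM, and the release channel ITPR2 was higher without overlap, at 45.5 ± 2.43 and 57.2 ± 1.37 CPM. STIM1 of the same list was lower without overlap, at 40.1 ± 2.6 and 36.6 ± 1.03 CPM. Of 16 tested genes for calcium channels and export at the plasma membrane 0 were called, with the export pump ATP2B1 at 373 ± 44.9 and 375 ± 19.7 CPM. Log2 fold changes in this list ran from -0.67 to 1.09, the highest for SLC8A2 at 0.115 ± 0.0655 and 0.247 ± 0.062 CPM. CACNA1H was higher without overlap, at 0.43 ± 0.166 and 0.721 ± 0.138 CPM, and 0 genes were lower without overlap.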

How the data were processed

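Poly(A) RNA libraries were prepared with a kit that keeps strand, sequenced in paired-end mode and mapped by the authors to GRCh38 with STAR 2.6.1d. The authors deposited raw gene counts for a union model of Ensembl isoforms; the counting program, its use of strand and its handling of read pairs are not given in the sources used here. Of the counts from 1 to 20, 59.2% were even, so counts were also halved as an alternative. Totals per sample were 54070030 to 77220882, and the level of 3 counts given as a floor covers counting error only.

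Counts were analysed with edgeR 4.0.16 under R 4.3.3 (low counts removed by filterByExpr at a minimum of 10, TMM scaling, quasi-likelihood test, condition only) over all 7 samples, with Benjamini-Hochberg adjustment over 23124 genes and a threshold of 0.05. CPM used TMM library sizes. DESeq2 1.42.0, limma 3.58.1 (voom), RLE factors, other filters, a replicate block and fits without each sample were alternatives. The code was tested on simulated data. Replicates of a group differed far beyond sampling noise (chi-square per degree of freedom 28.6 to 96.2), so each counted as its own sample.

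Samples were grouped by the treatment label. BV6 and untreated replicates 2, 3 and 4 were paired by the experiment label in their titles, whose meaning beyond that is not stated. Deviations of paired samples from their group means correlated at 0.462, 0.438 and 0.085, and at -0.11 on average across different numbers. Untreated replicate 1 has no partner and adds nothing to the paired difference.

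The members and lists were chosen with earlier results of these data known. Named were the 10 members, the called genes of the lists, up to 3 genes per list with the highest level or largest fold change, the 5 genes most correlated with CAMK1G and with CAMK2A (log2 CPM, prior count 2) and BIRC3 among the targets that check the treatment. Markers, OGG1, SLC6A7, YKT6 and other genes outside this rule were named after their values were seen. Lengths, coordinates and overlaps came from GENCODE 44 and promoters from RefSeq, both on GRCh38. Levels per kb carry the uncertainty of which isoforms are expressed. The counts rest on an earlier Ensembl annotation, so the exons counted, and their overlaps, may differ from those of GENCODE 44. Protein sequences were not used here. Some listed genes are not reported here.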

Additional observations from a re-analysis of the deposited data

Results flagged for a closer look

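Among 57 sets of untreated values, from the family and the named genes of the lists, 1 held a sample far from the rest. NRGN, the calmodulin-binding protein neurogranin, was at 11.9 CPM in untreated replicate 1 and at 7.81 to 8.25 CPM in the other untreated samples, a gap of 0.894 of the whole range, above Dixon's limit for 4 samples. Chance alone flags about 1 in 20 such groups. None of the 10 CaMK genes had a sample of this kind.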

How the results depend on the processing

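All 139 member fold changes under the alternatives moved by less than the spread between replicates. Of the 2 members called, 1 (CAMK2A) remained with at least 10 counts in every sample, where CAMK1G is not tested, and 1 with the replicate block. The block lowered the log2 fold change of CAMK1G from 2.48 to 2.23, raised the called genes of the calcium lists from 2 to 4 (DCLK1, HDAC9, MYLK and, lower, RCAN2) and raised the called genes overall from 104 to 218, of which 96 were shared; it changed no other call among the members. Leaving out 1 sample at a time gave 1 to 2 called members and 38 to 89 called genes, the fewest without untreated replicate 3 and the most without BV6 replicate 3. DESeq2 called 408 genes and 3 members, adding CAMK2B, and edgeR with no filter on low counts called 242 genes; the cause was not tested. Halving the counts, chosen after the data were seen, gave 111 genes and 2 members. With the length of the longest transcript in place of all exons, 6 of 10 members kept their place in the order of levels. Low counts limit CAMK1G most, with 7 to 12 counts in untreated samples.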
